A study of Mus musculus with 8 samples.

Results

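BMP ligands, their secreted antagonists and the Id genes were followed in cultured mouse colon fibroblasts with and without Zeb1, a zinc-finger transcription factor best known as a repressor of epithelial genes. The 9 genes were chosen by name and comprised the ligand genes Bmp2, Bmp3, Bmp4 and Bmp5, the antagonist genes Chrd and Grem1, and the response genes Id1, Id2 and Id3. They were taken from 45321 genes with a value in the RNA sequencing tables, and 7 of the 9 passed the expression filter (Bmp2 and Bmp5 did not). The question was whether the Id genes followed the changes of the ligands and antagonists.

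The libraries came from adherent cultures grown out of normal colon of Zeb1 fl/fl mice on gelatine in medium with serum and without further treatment. The 4 Fib-Ctrl libraries carried Zeb1 flox/flox and the 4 Fib-dZeb1 libraries, titled Fib-KO, carried Zeb1 del/del after Cre recombinase had been induced in vitro. Both groups therefore derived from floxed animals. How the control cultures were handled during Cre induction is not given in the sources used here, so effects of the deletion and of Cre itself cannot be told apart. There were 2 lines per genotype and 2 replicates per line, and tests over 8 libraries treat replicates of the same line as if they were independent. In the study's methods, the Zeb1 fl/fl colony with Col1a2-CreERT2 had an FvB background and the one with Col6a1-Cre a C57BL/6 background. The sources used here do not give which colony the cultures came from, the age of the animals or whether a line was a clone.

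BMPs are secreted ligands of the TGFβ superfamily. They bind serine/threonine kinase receptors that phosphorylate SMAD1, SMAD5 and SMAD9, which enter the nucleus with SMAD4 and induce transcription of the Id genes. Id proteins have a helix-loop-helix domain but no DNA-binding region and sequester E proteins. In the colon, stromal cells near the crypt base secrete antagonists such as Gremlin 1, and BMP signals rise towards the lumen, where they promote epithelial differentiation.

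Zeb1 was at 94.7 ± 2.71 CPM (read counts relative to the TMM-adjusted library size, mean ± SD, n = 4) in Fib-Ctrl and at 14.3 ± 2.96 CPM in Fib-dZeb1, a log2 fold change of -2.73 ± 0.15 (SE, adjusted p = 4.8e-05). Library totals ranged from 18852422 to 25540529 reads. Xist was at 250.9 and 113.2 CPM in the 2 libraries of Fib-dZeb1 line 1 and at 0 in the other 6, whereas Ddx3y was at 0 in Fib-dZeb1 line 1 and between 32.9 and 110.6 CPM elsewhere, so the line 1 cultures of the 2 genotypes also differed in sex-linked transcripts. Of 12963 genes tested, 7.54% were called higher and 8.65% lower in Fib-dZeb1 at an adjusted p under 0.05, and the 4 libraries of one genotype did not overlap with those of the other for 24.3% of genes. Of the 7 tested genes, 3 were called higher (Bmp3, Bmp4 and Id1), 1 was called lower (Chrd), and the libraries of these 4 did not overlap. For Bmp3 this was fixed by the expression filter, which it passed only through its Fib-dZeb1 libraries. The genes were chosen with earlier results of these data known, so setting these counts against all genes is no test of the set. Grem1, Id2 and Id3 did not pass the threshold. When lines rather than libraries were the units, no member passed. With the reads of each line summed (edgeR), 4 of 7 had an unadjusted p under 0.05, as did 1875 of the 12963 genes. The adjusted p of the 4 called genes was from 0.14 to 0.283. With limma-voom, 5 of 7 had an unadjusted p under 0.05, as did 2590 of the 12963 genes. For the 4 called genes, the limma-voom adjusted p was from 0.0504 to 0.236.

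**Figure D1:**
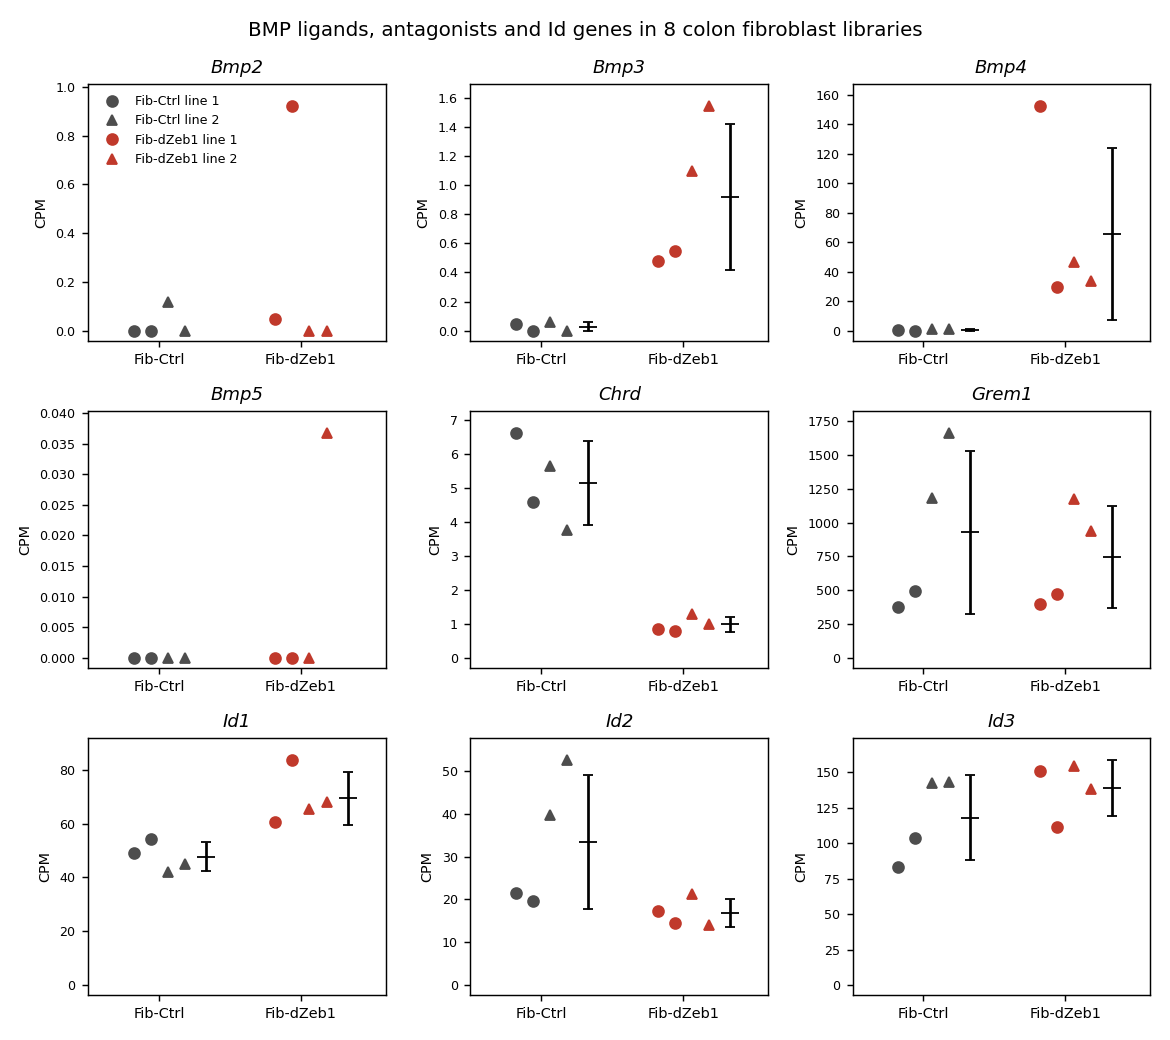
CPM (linear axis, 1 panel a gene with its own scale) of the 9 genes in 4 Fib-Ctrl and 4 Fib-dZeb1 libraries. Circles are line 1, triangles line 2, and bars give the mean ± SD of 4 libraries for the 7 tested genes, cut at 0 where the SD exceeds the mean. Bmp4 is at most 1.08 CPM in Fib-Ctrl and at least 29.9 CPM in Fib-dZeb1, whereas Grem1 separates the lines in both genotypes.

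Among the ligands, Bmp4 changed from near absence to a well expressed transcript. Bmp4 encodes a mesenchymal BMP ligand that activates the canonical receptors, and its gene lies at chr14:46383520-46390669 on the minus strand (GRCm38, GENCODE M21). In Fib-Ctrl, line 1 had 0.229 and 0.0514 CPM and line 2 had 0.815 and 1.08 CPM, which rest on 41 reads in all. In Fib-dZeb1, line 1 had 152 and 29.9 CPM and line 2 had 46.3 and 34 CPM, from 5850 reads. Every Fib-dZeb1 library was above every Fib-Ctrl library, and replicate 1 of Fib-dZeb1 line 1 stood far above the other 3. The log2 fold change was 6.93 ± 0.86 (adjusted p = 0.0028), or 122-fold, and it was 6.09 to 7.52 with any of the 8 libraries left out.

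Of the 250 bases upstream of the annotated Bmp4 start (RefSeq, GRCm38.p6, chr14:46390670-46390919, minus strand), the stretch below holds CAGGTG, an E-box of the kind that ZEB1 binds, printed in capitals. The promoter is shown because Bmp4 had the largest change among the 7 tested genes.

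Bmp4: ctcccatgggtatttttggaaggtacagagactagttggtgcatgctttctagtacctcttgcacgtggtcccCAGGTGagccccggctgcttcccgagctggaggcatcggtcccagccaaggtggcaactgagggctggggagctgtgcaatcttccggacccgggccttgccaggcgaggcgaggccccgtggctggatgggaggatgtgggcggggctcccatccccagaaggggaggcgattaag

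The match began 177 bases before the start. Windows of 300 bases (250 before the start and 50 after it) were given for 6 of the 9 genes (Bmp4, Bmp5, Chrd, Grem1, Id2 and Id3), and CAGGTG or its reverse complement CACCTG was found in the Bmp4 window only. The Id3 window (chr4:136143572-136143871, plus strand) lay inside the GENCODE gene. No sequence before the Id3 gene start at 136143497 was searched. Of all 32851 promoter windows of this length, 20.2% held it. A match is a description of the sequence and not evidence of binding.

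Bmp4 reads were assigned to transcripts that differ at their first exons. Bmp4-201, with 4 exons, carried most of the level, and Bmp4-202, with 3 exons and a start inside that of Bmp4-201, made up 24% and 40.8% of Bmp4 TPM (read density per transcript length) in line 1 of Fib-dZeb1 and 19.6% in both libraries of line 2. On chromosome 14, 25.3% of the other 435 tested genes were called higher, against 6.92% of the genes on all other chromosomes. Of the 10 tested genes that flank Bmp4, 5 on each side, 1 was called higher and none lower (edgeR adjusted p). The part of the chromosome in the Bmp4 difference was not tested.

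Bmp3, which encodes a BMP family member that antagonises other BMPs through activin receptors (chr5:98854415-98884396, plus strand), was also higher, at a much lower level. Fib-Ctrl libraries had 1 and 0 reads in line 1 and 1 and 0 reads in line 2. Fib-dZeb1 libraries had 10 and 13 reads in line 1 and 24 and 42 reads in line 2. Each Fib-dZeb1 library exceeded all Fib-Ctrl libraries, and no library exceeded 1.54 CPM. Bmp3 passed the expression filter only through these Fib-dZeb1 libraries. The lack of overlap was thus fixed by the filter, and the call of Bmp3 is no independent support. The summed reads gave a CPM ratio of 36.8 with an exact 95% interval from 9.9 to 309 that covers counting error only (adjusted p = 0.00722 in the genotype test). By TPM, mean Bmp3 was 0.285 in Fib-dZeb1 against 69.2 for Bmp4.

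Bmp2 and Bmp5, which encode further activating ligands, were at the limit of detection. Bmp2 (chr2:133552159-133562885, plus strand) had 2 reads in Fib-Ctrl line 2 replicate 1 and 0 in the other 3 control libraries, and in Fib-dZeb1 it had 1 and 22 reads in line 1 and 0 in both libraries of line 2. The ratio of 9.52 (exact 95% interval 2.35 to 83.3, counting error only) thus rests on replicate 2 of Fib-dZeb1 line 1. Bmp5 (chr9:75775364-75900310, plus strand) had 1 read in all 8 libraries, in Fib-dZeb1 line 2 replicate 2, and the 0 reads of Fib-Ctrl allow up to 0.0386 CPM over the 4 libraries. Neither gene was tested.

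The antagonists differed from each other. Chrd encodes Chordin, a secreted protein that binds BMP2 and BMP4 and keeps them from their receptors (chr16:20733127-20742384, plus strand). In Fib-Ctrl, line 1 had 6.6 and 4.58 CPM and line 2 had 5.65 and 3.77 CPM. In Fib-dZeb1, line 1 had 0.859 and 0.795 CPM and line 2 had 1.28 and 0.991 CPM. All 4 Fib-dZeb1 libraries were below all 4 Fib-Ctrl libraries. The log2 fold change was -2.39 ± 0.28 (adjusted p = 0.00223), which is 5.23-fold lower, with counts of 403 reads in Fib-Ctrl and 92 in Fib-dZeb1.

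Grem1 encodes Gremlin 1, which binds BMP2, BMP4 and BMP7 (chr2:113746164-113758646, minus strand), and it had the highest mean CPM of the 9 genes in both genotypes. By TPM, Id3 exceeded it in replicate 1 of Fib-dZeb1 line 1 (268.7 against 183.1). In replicate 2 of that line Id1 did (210.5 against 205.5 TPM). Line 1 of Fib-Ctrl had 372 and 497 CPM, and line 2 had 1182 and 1660 CPM. Line 1 of Fib-dZeb1 had 394 and 468 CPM, and line 2 had 1175 and 938 CPM. The genotypes overlapped throughout, and in both of them the line 2 libraries were above the line 1 libraries. The genotype difference was -0.32 ± 0.52 on the log2 scale (adjusted p = 0.713), and its sign turned when Fib-Ctrl line 2 replicate 2 was left out (0.11, adjusted p = 0.902). Line 2 exceeded line 1 by 1.71 ± 0.22 in Fib-Ctrl (adjusted p = 0.00419) and by 1.29 ± 0.22 in Fib-dZeb1 (adjusted p = 0.0208), on the log2 scale. These contrasts of lines within a genotype were examined after the values had been seen, and 17.0% of all genes passed in the first and 6.87% in the second.

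Chrd and Grem1 are compared with the ligand per length in TPM. Bmp4 stood to Chrd at a ratio of 0.0248 to 0.481 in the Fib-Ctrl libraries and of 63.3 to 315 in the Fib-dZeb1 libraries. Its ratio to Grem1 was 0.000294 to 0.00149 in Fib-Ctrl libraries, against 0.0821 to 0.884 in Fib-dZeb1 libraries. Grem1 therefore had a higher transcript density than Bmp4 in all 8 libraries, including the Fib-dZeb1 library with the highest Bmp4 level.

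The upstream sequence of Chrd is shown with that of Id2 because both windows hold GGCGCC (capitals), a palindromic GC-rich element found in BMP-responsive Id promoters, while the genes belong to different roles. The windows are chr16:20732877-20733126 on the plus strand for Chrd and chr12:25096093-25096342 on the minus strand for Id2 (RefSeq, GRCm38.p6).

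Chrd: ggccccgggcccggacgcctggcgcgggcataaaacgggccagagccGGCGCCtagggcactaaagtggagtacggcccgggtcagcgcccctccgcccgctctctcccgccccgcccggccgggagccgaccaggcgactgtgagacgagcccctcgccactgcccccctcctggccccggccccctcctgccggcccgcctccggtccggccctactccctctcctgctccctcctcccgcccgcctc

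Id2: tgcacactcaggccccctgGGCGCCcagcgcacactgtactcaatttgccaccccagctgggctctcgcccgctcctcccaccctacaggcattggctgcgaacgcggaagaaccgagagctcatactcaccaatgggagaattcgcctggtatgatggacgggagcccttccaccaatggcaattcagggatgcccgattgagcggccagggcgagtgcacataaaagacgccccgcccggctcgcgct

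GGCGCC began 203 bases before the start in Chrd, 231 bases in Id2 and 78 bases in Grem1. It was not found in the windows of Bmp4, Bmp5 and Id3, and 11.9% of all windows held it. The Id3 window lay inside the annotated gene, so the sequence before the gene start was not searched. The element was thus present upstream of genes that were lower (Chrd), that did not pass the test (Id2) and that followed the lines (Grem1).

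The Id genes did not move together. Id1 rose modestly, Id3 was not called, and Id2 was lower on average without passing the threshold. Id1 encodes an inhibitor of DNA binding that is among the most direct targets of BMP-activated SMADs (chr2:152736251-152737410, plus strand). In Fib-Ctrl, line 1 had 49.2 and 54.4 CPM and line 2 had 42 and 45 CPM. In Fib-dZeb1, line 1 had 60.5 and 83.6 CPM and line 2 had 65.6 and 67.9 CPM. The groups did not overlap, although the lowest Fib-dZeb1 library lay close to the highest Fib-Ctrl library. The log2 fold change was 0.54 ± 0.13 (adjusted p = 0.0261), or 1.46-fold. The call was lost when replicate 1 of Fib-Ctrl line 1, either replicate of Fib-Ctrl line 2, or replicate 2 of either Fib-dZeb1 line was left out (adjusted p up to 0.072), with log2 fold changes from 0.44 to 0.61 over all 8 omissions. On chromosome 2, 13.9% of the other 1020 tested genes were called higher, against 6.99% elsewhere. The part of the chromosome in the Id1 values was not tested.

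Id3, a close relative of Id1 with the same mode of action (chr4:136143497-136145755, plus strand), was the most abundant Id transcript by mean TPM in both genotypes. In Fib-Ctrl, line 1 had 83.1 and 104 CPM and line 2 had 142 and 143 CPM, whereas in Fib-dZeb1 line 1 had 151 and 111 CPM and line 2 had 154 and 139 CPM. The line 2 libraries of both genotypes overlapped. The log2 fold change of 0.23 ± 0.19 did not pass (adjusted p = 0.439).

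Id2, which also responds to signals other than BMP (chr12:25093799-25097140, minus strand), had the widest gap of the 3 Id genes between the control lines on the log2 scale. Line 1 of Fib-Ctrl had 21.4 and 19.7 CPM, and line 2 had 39.7 and 52.4 CPM. Line 1 of Fib-dZeb1 had 17.3 and 14.6 CPM, and line 2 had 21.3 and 13.9 CPM. Only Fib-dZeb1 line 2 replicate 1 reached into the control range. The log2 fold change was -0.99 ± 0.32 (adjusted p = 0.0691), and it passed when the line number was a term (adjusted p = 0.0427), with DESeq2 (adjusted p = 0.018) and without Fib-Ctrl line 1 replicate 2 (adjusted p = 0.0439). On chromosome 12, 20.1% of the other 458 tested genes were called lower, against 8.23% elsewhere, and the part of the chromosome in the Id2 values was not tested.

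The levels of Id1 and Id3 relative to Id2 did not overlap between the genotypes. On the log2(CPM + 0.5) scale, Id1 over Id2 ranged from -0.22 to 1.44 (Fib-Ctrl) and from 1.6 to 2.48 (Fib-dZeb1), and Id3 over Id2 was 1.44 to 2.36 and 2.83 to 3.27. Id1 over Id3 overlapped, at -1.75 to -0.75 and -1.31 to -0.41. The sum of the 3 Id genes ranged from 288.5 to 400.4 TPM (Fib-Ctrl) and from 422.2 to 488.5 TPM (Fib-dZeb1), a scale on which the median of all genes was 0.168 higher in Fib-dZeb1 (log2). These ratios and sums were formed after the values had been seen and carry no test.

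**Figure D2:**
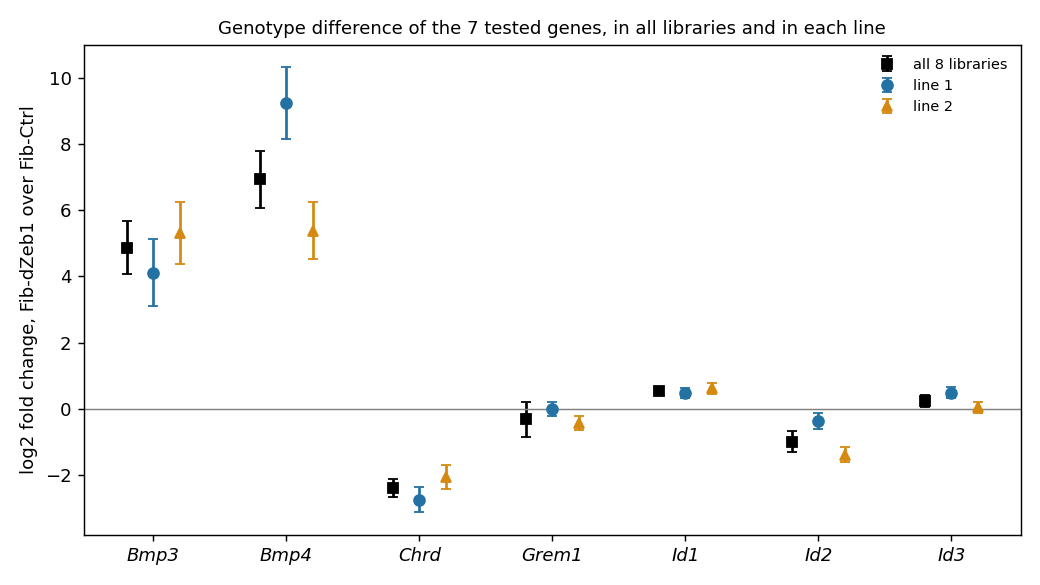
Log2 fold change of Fib-dZeb1 over Fib-Ctrl for the 7 tested genes, from all 8 libraries (squares) and from the line 1 cultures (circles) and the line 2 cultures (triangles) alone. Bars are standard errors. Bmp3, Bmp4 and Chrd lie away from 0 in both lines, and Id2 lies at -0.37 in line 1 and at -1.39 in line 2.

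Lines were also compared by number, Fib-dZeb1 line 1 with Fib-Ctrl line 1 and line 2 with line 2. The lines with the same number were not shown to be related, so each contrast sets 1 line against 1 line, and within it genotype and line cannot be told apart. In these contrasts, 3 of the 7 genes passed in line 1 (Bmp3, Bmp4 and Chrd) and 5 passed in line 2 (these 3, Id1 and Id2), where 27.4% and 28.8% of all genes passed. Bmp4 was higher by 9.24 ± 1.09 on the log2 scale in line 1 (adjusted p = 0.00197), where Fib-Ctrl had only 5 and 1 reads, and by 5.38 ± 0.86 in line 2 (adjusted p = 0.00463). Chrd was lower in line 1 (-2.75 ± 0.38, adjusted p = 0.00312) and in line 2 (-2.05 ± 0.36, adjusted p = 0.00685). Id1 differed by 0.48 ± 0.16 in line 1 (adjusted p = 0.0592, and 0.0238 with the replicate number as a block) and by 0.62 ± 0.16 in line 2 (adjusted p = 0.025). Id2 differed by -0.37 ± 0.23 in line 1 (adjusted p = 0.273) and by -1.39 ± 0.23 in line 2 (adjusted p = 0.0056). Id3 differed by 0.49 ± 0.17 in line 1 (adjusted p = 0.0665) and by 0.04 ± 0.17 in line 2 (adjusted p = 0.889).

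No member passed the test of whether the contrast of the line 2 cultures differed from that of the line 1 cultures (edgeR, 1 of 7 at an unadjusted p under 0.05, Id2), where 15.3% of all genes did. The difference was -1.02 ± 0.33 for Id2 (adjusted p = 0.0736), -3.85 ± 1.68 for Bmp4 (adjusted p = 0.159) and -0.45 ± 0.24 for Id3 (adjusted p = 0.23). Without the filter on low counts, Id2 (-1.02, adjusted p = 0.00179), Bmp4 (-3.84, adjusted p = 2.32e-12) and Bmp2 (-9.82, adjusted p = 0.0477) passed. The control lines themselves differed in these genes. Fib-Ctrl line 2 exceeded Fib-Ctrl line 1 in Id2 by 1.17 ± 0.23 (adjusted p = 0.0163) and in Id3 by 0.61 ± 0.17 (adjusted p = 0.0462), whereas the Fib-dZeb1 lines differed by 0.14 ± 0.23 in Id2 (adjusted p = 0.751) and by 0.16 ± 0.17 in Id3 (adjusted p = 0.604).

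**Figure D3:**
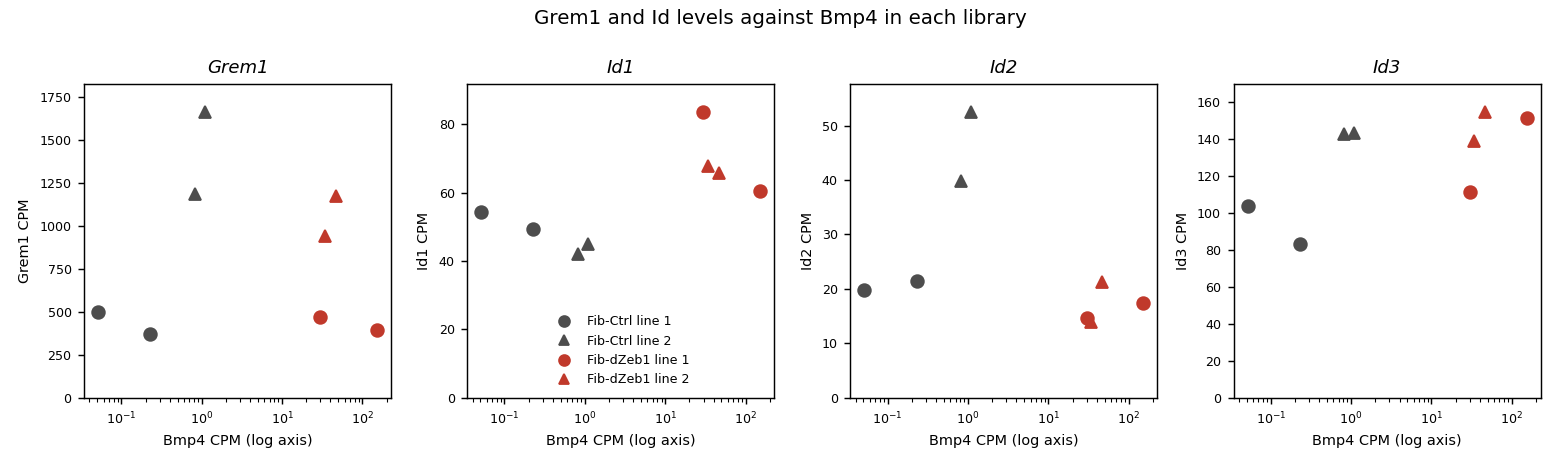
CPM of Grem1, Id1, Id2 and Id3 (linear axes from 0) against CPM of Bmp4 (log axis), 1 point a library. Circles are line 1 and triangles line 2, grey for Fib-Ctrl and red for Fib-dZeb1. Among the 4 Fib-dZeb1 libraries, the one with 152 CPM of Bmp4 has the lowest Id1 level (60.5 CPM) and the one with 29.9 CPM has the highest (83.6 CPM).

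Set beside each other library by library, the Id levels varied less than Bmp4. Across the Fib-dZeb1 libraries, the highest TPM of Bmp4 was 5.16 times the lowest, whereas the corresponding factor was 1.31 for Id1, 1.48 for Id3 and 1.56 for Id2. The 4 Fib-dZeb1 libraries had the reverse order for Bmp4 and Id1, whereas the 2 with the most Bmp4 (replicate 1 of each line) had more Id2 and Id3 than the other 2. In Fib-Ctrl, the line with more Id2 and Id3 was also the line with more Grem1. The libraries fall into 2 genotypes and 4 lines, so no correlation over all 8 is given as a result.

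The genes whose levels were most like those of the members were taken from 10109 protein-coding genes with a mean of at least 5 CPM, by Pearson's r of log2(CPM + 0.5) over the 8 libraries, which share lines, genotype and scaling. For Bmp4 they were Zfp207 (0.987), Atp1b1 (0.987), which encodes a subunit of the sodium pump, and Klk8 (0.985), which encodes a secreted serine protease. For Grem1 they included Bag1 (0.974) and Pgm2l1 (0.971). Those most like Id1 were Insig1 (0.991), a regulator of sterol synthesis, Cdca7 (0.99) and Rp2 (0.989), those most like Id2 were Gm2115 (0.981), Adra1b (0.98) and Haus7 (0.976), and those most like Id3 were the kinesin gene Cenpe (0.936), Ctu2 (0.932) and Extl3 (0.926). The members themselves were left out of this search, so it cannot show whether they resemble each other.

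The remaining genes of the pathway were taken from lists by role. Of 78 listed genes, 51 were tested, 1 was called higher (1.96%, against 7.54% of all tested genes) and 7 were called lower (13.7%, against 8.65%). The contrast of the line 2 cultures differed from that of the line 1 cultures for 20 of the 51 (39.2%, against 15.3% of all tested genes). In 17 of these 20 the contrasts had opposite signs, so calls and medians over all 8 libraries can average opposing lines. Among the other ligand genes, 3 of 17 were tested and 1 was called: Gdf15, a stress-induced member of the superfamily that signals through another receptor, fell from 19.4 ± 10.2 to 6.12 ± 2.40 CPM (log2 fold change -1.67 ± 0.43, adjusted p = 0.0328), with overlapping groups. None of the untested ligands had a mean above 0.62 TPM in either genotype. In Fib-dZeb1, mean TPM was 69.2 for Bmp4, 14.9 for Gdf11 and 9.71 for Gdf15.

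Of the 21 other secreted antagonists and modulators, 14 were tested, 2 were called lower and none higher. Nbl1, a DAN family antagonist, fell from 128 ± 35.3 to 57.3 ± 16.2 CPM (log2 fold change -1.16 ± 0.26, adjusted p = 0.0219). Fstl3, a follistatin-like protein that binds activins and some BMPs, fell from 99.6 ± 31.6 to 47.0 ± 6.94 CPM (-1.08 ± 0.23, adjusted p = 0.0161). In both, the 4 Fib-dZeb1 libraries were below all Fib-Ctrl libraries. The median log2 fold change of the 14 was -0.21, against -0.005 over all genes.

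All 12 receptor and co-receptor genes with a value were tested, and 1 was called higher and 1 lower (7.54% and 8.65% of all tested genes were). Of the 12, 6 had an unadjusted p under 0.05 (edgeR) and 5 were called by DESeq2. Bmpr1b, which encodes a type I BMP receptor, fell from 24.0 ± 11.5 to 10.1 ± 1.73 CPM (-1.25 ± 0.34, adjusted p = 0.0382), with -0.51 between the line 1 cultures and -1.73 between the line 2 cultures (adjusted p of the difference 0.0373). Rgmb, a membrane-bound co-receptor, rose from 34.5 ± 6.87 to 55.8 ± 10.7 CPM (0.69 ± 0.18, adjusted p = 0.0365), with a slight overlap. The median of the 12 was -0.48, and it averages lines that moved apart in several of these genes. Eng differed by 2.18 between the line 1 cultures and by -5.82 between the line 2 cultures (edgeR adjusted p of the difference 0.00013). For Bmpr1a these values were -0.58 and 0.79 (edgeR adjusted p of the difference 0.00345).

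None of the 12 tested SMAD genes and SMAD regulators was called by edgeR (1 at an unadjusted p under 0.05) or by DESeq2. The most abundant per length were Smurf2, a ubiquitin ligase that acts on SMADs and receptors, with mean TPM of 51.4 and 69.3, and Smad4, the common partner SMAD, with mean TPM of 52.3 and 60.7 in Fib-Ctrl and Fib-dZeb1. The log2 fold change of Smurf2 was 0.65 between the line 1 cultures and -0.12 between the line 2 cultures (edgeR adjusted p of the difference 0.0102). None of the 3 E protein genes was called by edgeR (1 at an unadjusted p under 0.05), and DESeq2 called Tcf4. Tcf3, which encodes E2A, was at 127 ± 19.4 and 128 ± 2.37 CPM, and Tcf12 was at 137 ± 9.63 and 153 ± 20.4 CPM. Tcf4 was at 110 ± 20.3 and 163 ± 32.9 CPM, with a log2 fold change of 0.56 ± 0.18 (edgeR adjusted p = 0.0668) and overlapping groups.

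Among 16 further genes that BMP signalling induces in various tissues, 12 were tested, 3 were called lower and none higher (8.65% and 7.54% of all tested genes were). Their median log2 fold change was -0.74. Between the line 1 cultures 8 of the 12 were below 0, against 10 between the line 2 cultures. Id4, the remaining Id gene, fell from 9.36 ± 3.76 to 3.0 ± 1.06 CPM (-1.64 ± 0.38, adjusted p = 0.0235), with a slight overlap. Atoh8, a helix-loop-helix factor gene, fell from 82.0 ± 18.5 to 36.6 ± 8.97 CPM (-1.16 ± 0.22, adjusted p = 0.0109). Msx2, a homeobox gene, fell from 5.31 ± 3.76 to 1.11 ± 0.387 CPM (-2.25 ± 0.56, adjusted p = 0.0289). For Atoh8 and Msx2 the genotypes did not overlap. Between the line 1 and the line 2 cultures, the log2 fold change was -0.97 and -2.27 for Id4. It was -0.96 and -1.34 for Atoh8, and -0.95 and -3.03 for Msx2. Id1 was thus called higher, whereas Id4, Atoh8 and Msx2 were called lower in the same libraries.

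**Figure D4:**
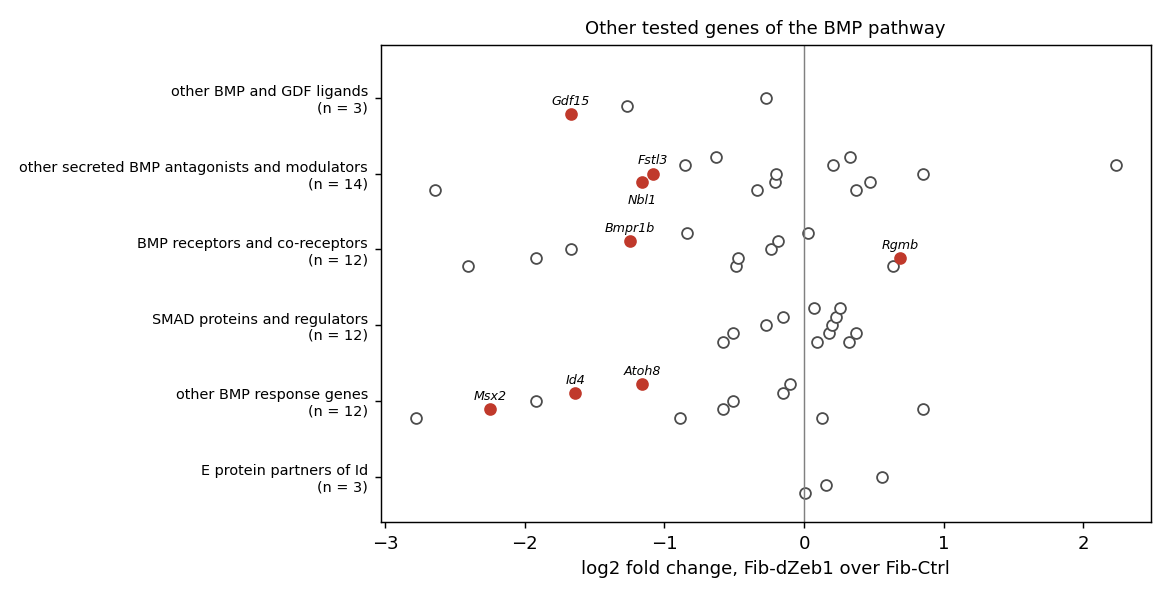
Log2 fold change of Fib-dZeb1 over Fib-Ctrl for the other tested pathway genes by list, 1 circle a gene (Smad6, Smad7, Smad9, Bambi and Nog are on 2 lists). Filled red circles passed an adjusted p under 0.05 and are named, and all of them but Rgmb lie below 0.

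Some markers of other cell types moved with genotype. Of 10 epithelial markers, 3 were tested and 2 were called higher, Epcam and Krt18, and the summed TPM of the list ranged from 2.46 to 15.0 (Fib-Ctrl) and from 25.8 to 191 (Fib-dZeb1). Krt19, called by DESeq2 only, had 1.61 to 5.42 TPM in Fib-Ctrl libraries and 2.55 to 26.6 TPM in Fib-dZeb1 libraries (log2 fold change 1.82 ± 0.69, edgeR adjusted p = 0.106). Krt8, which was not tested, had at most 0.0595 TPM in any Fib-Ctrl library and 0.373 to 2.45 TPM in the Fib-dZeb1 libraries. Cdh1 reached 0.252 TPM at most, and Vil1, Muc2, Krt20 and Cldn7 did not exceed 0.311 TPM in any Fib-dZeb1 library. In Fib-Ctrl, these 4 reached 0.19, 0.576, 0.386 and 0.501 TPM. Lgr5, which was not tested, went the other way. It had 10.9 and 6.6 TPM in Fib-Ctrl line 1, at most 0.142 TPM in Fib-Ctrl line 2 and at most 0.228 TPM in Fib-dZeb1. Krt18 alone had 66.6 and 179 TPM in Fib-dZeb1 line 1, which is most of the sum there. The Fib-dZeb1 library with the highest Bmp4 level had an epithelial sum of 72.3 TPM, and the one with the lowest Bmp4 level had 191 TPM. Of the 2 markers of interstitial cells of Cajal, Ano1 was higher and Kit was at most 0.0565 TPM, with a summed level of 2.35 to 11.4 TPM (Fib-Ctrl) and 16.1 to 58.8 TPM (Fib-dZeb1). Of the 4 mesothelial markers, Msln was higher, and the list had a sum of 0.0954 to 0.643 and 1.41 to 7.77 TPM. Most of the Fib-dZeb1 sum was Msln alone (1.11 to 7.51 TPM). Wt1, which was not tested, went the other way, at 0.0688 to 0.551 TPM in Fib-Ctrl and 0 to 0.161 TPM in Fib-dZeb1. Upk3b and Lrrn4 did not exceed 0.218 TPM in any library.

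Of the 8 fibroblast markers, Col1a1 and Col1a2 were lower and none was higher, and the sum ranged from 14765 to 18921 TPM (Fib-Ctrl) and from 7160 to 11163 TPM (Fib-dZeb1). Of 5 smooth muscle and pericyte markers, 3 were tested and Cnn1 was lower, with sums of 326 to 563 and 159 to 246 TPM. No immune marker (2 of 6 tested, both at an unadjusted p under 0.05, 1 called by DESeq2), endothelial marker (1 of 5 tested, none at an unadjusted p under 0.05 or by DESeq2) or enteric glia marker (none of 3 tested) was called by edgeR. The immune sum ranged from 2.21 to 22.7 TPM (Fib-Ctrl) and from 3.21 to 4.46 TPM (Fib-dZeb1), and the endothelial and glial sums did not exceed 1.39 and 1.58 TPM in any library. In such bulk samples, fewer cells of a type and less RNA per cell cannot be told apart, and the part of these markers in the differences of the BMP and Id genes was not tested.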

How the data were processed

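RNA sequencing of polyadenylated RNA was performed by the authors, whose nf-core pipeline used STAR for alignment to GRCm38 and Salmon for transcript abundance; tool versions are not given in the submitters' processing notes. The deposited tables hold estimated counts per transcript, made by the authors with Salmon and not normalized, and the deposited TPM of the same transcripts. Here, estimated counts were summed to genes with GENCODE M21, which matched 98.72% of transcripts (0.262% to 0.303% of reads per library were unmatched), and rounded. With Python 3.11.15, TPM were summed likewise. Counts of replicates from 1 line were farther apart than sampling noise allows (chi-square per degree of freedom from 19.3 to 74.6). Pairs of libraries from different lines were mostly farther apart still (73.7 to 302). In the main fit each library counted once, which does not make replicates of 1 line independent.

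Genotypes were compared with the quasi-likelihood test of edgeR 4.0.16 (R 4.3.3) on all 8 libraries with genotype as the only term, filterByExpr, TMM scaling and Benjamini-Hochberg adjustment over 12963 genes at 0.05, which is meant wherever an adjusted p is given. A second fit had 1 mean for each of the 4 lines. Each standard error is the size of the log2 fold change over the square root of F. The scripts were tested on simulated data. Alternatives were DESeq2 1.42.0, limma 3.58.1 (voom with lines as random units, and a trend fit on log2(TPM + 0.1)), library size scaling, no filter, a replicate block, a line term, summed lines and omission of each library. Where a genotype had 1 to 3 reads, an exact 95% counting interval is given, and 0 reads allow up to 3 reads over its 4 libraries.

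The labels number lines and replicates. The change from replicate 1 to replicate 2 correlated at 0.167 to 0.384 between all 6 pairs of lines. A replicate block shared by the lines was therefore fitted as an alternative, and the main fits hold no such term. Between genotypes, libraries sharing their line number and replicate number correlated at -0.054 to 0.23 in their deviations from the genotype mean, so line numbers were not taken as pairs. Whether replicates came from separate cultures is not given in the sources used here, and p-values measure only the spread between these libraries.

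Members and lists were chosen with earlier results of these data known. The text names all 9 members, Zeb1, up to 6 called genes of each pathway list (otherwise its 2 most abundant), and the 3 genes most like Bmp4, Grem1, Id1, Id2 and Id3 (1 of those for Grem1 is not reported here). Gdf11, Eng, Bmpr1a, Tcf4, the sex-linked genes and the genes named from marker lists were chosen after their values were seen. The strand setting is not given in the sources used here, so overlapping and antisense genes are uncertain.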

Additional observations from a re-analysis of the deposited data

Results flagged for a closer look

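In groups of 4 libraries, the gap between the highest or lowest library and its neighbour was compared with the range of the group (Dixon's test at the 95% level), and 17 groups were examined. Chance passes this test in about 1 of 20 groups of normally distributed values, a rate that does not hold for counts near 0. Bmp4 stood out in Fib-dZeb1 line 1 replicate 1, at 152 CPM against 29.9 to 46.3 CPM in the other 3 Fib-dZeb1 libraries. Bmp2 stood out in Fib-dZeb1 line 1 replicate 2 at 0.921 CPM (22 reads) and in Fib-Ctrl line 2 replicate 1 at 0.116 CPM (2 reads). Bmp5 had its only read in Fib-dZeb1 line 2 replicate 2, at 0.0367 CPM. For Bmp5 and for Bmp2 in Fib-Ctrl, all other libraries of the group had 0 reads. The gap then equals the range at any count, so these flags were fixed in advance.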

How the results depend on the processing

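Bmp3, Bmp4 and Chrd kept their direction and their call under 6 of 8 other settings and with each library left out (log2 fold changes over these omissions 4.49 to 5.39, 6.09 to 7.52 and -2.53 to -2.25). For Bmp3 it was 1.8 on the log2(TPM + 0.1) scale. With the reads of each line summed, members called higher and lower were 0 and 0 (all genes 9 and 6), and with limma-voom and lines as random units (correlation within lines 0.543) they were 0 and 0 (all genes 114 and 146). Members called lower were 2 with DESeq2 and with the line term. All genes called higher were 1544 with DESeq2, 2272 with library size scaling and 1984 with TPM, and lower 1670 with DESeq2, 719 with library size scaling and 725 with TPM, where the median of all genes moved by 0.173 and 0.168. Members called in line 1 were 5 with library size scaling and 6 without the filter, and members differing between lines 3 without it (Id2, Bmp4 and Bmp2). Leaving out 1 library gave 2 to 3 members called higher, 1 to 2 called lower, 476 to 1011 genes called higher and 508 to 1141 called lower. For Fib-Ctrl these were 639 and 738 without replicate 1 of line 1 and 570 and 730 without replicate 1 of line 2. For Fib-dZeb1 they were 606 and 711 without replicate 2 of line 1, 621 and 718 without replicate 1 of line 2, and 476 and 508 without replicate 2 of line 2. Grem1 ranged from -0.63 to 0.11 and reversed to 0.11 without replicate 2 of Fib-Ctrl line 2. With the replicate block, 920 genes were called higher and 1046 lower, members called higher and lower stayed at 3 and 1, members called in line 1 were 4 (Id1 was added), and it changed no other call of a member. The cause of these shifts was not tested. Depth limits Bmp2, Bmp3 and Bmp5, with at most 2 reads in all Fib-Ctrl libraries.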
